A study of Mus musculus with 6 samples.

Results

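The 44 genes described here encode the machinery that carries secreted and membrane proteins into the endoplasmic reticulum (ER), glycosylates and folds them there, and moves them in vesicles between the ER and the Golgi. They were chosen by gene symbol, and all 44 were found among the 32285 genes of the deposited matrices. By role they were 6 genes of the Sec61 translocon and its partners, 4 of the translocon-associated protein (TRAP) complex, 6 of signal recognition, 5 of the signal peptidase, 7 of the oligosaccharyltransferase, 6 of the COPII coat, 6 of the COPI coat and ER retrieval, and 4 lectin chaperones and disulfide isomerases. The study profiled single bone marrow cells of 9 BALB/c mice, 10 weeks old at harvest, after magnetic enrichment for the stem cell factor receptor c-Kit. Non-tumor-bearing (NTB) mice received no treatment. The other mice carried orthotopic mammary tumors of 4T1, a BALB/c mammary carcinoma cell line, and were injected each day for 2 weeks with either DPBS vehicle or brequinar (BRQ) at 10 mg/kg, an inhibitor of the pyrimidine synthesis enzyme dihydroorotate dehydrogenase. Each group held 3 mice, and each of 3 pools held 1 mouse of every group under its own hashtag antibody, so that pool and group were crossed. The vehicle and BRQ groups differed in the drug, and both differed from NTB in tumor and injections together, which cannot be told apart in that comparison.

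A nascent secretory protein is bound by the signal recognition particle, docked at its receptor and threaded through the Sec61 channel, where the signal peptidase removes its leader and the oligosaccharyltransferase adds a preformed glycan to asparagine. Calreticulin and calnexin then hold the glycoprotein while protein disulfide isomerases form its disulfide bonds, COPII vesicles carry it to the Golgi, and COPI vesicles return escaped ER residents. Granulocyte-monocyte progenitors (GMPs) are the marrow cells in which granule proteins such as elastase and myeloperoxidase are made, and these enter the ER by this route.

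Many genes of this machinery are known targets of the unfolded protein response, whose factors bind short promoter elements, so the members' promoters were read for those elements. RefSeq promoters of build GRCm38.p6, from 250 bases before to 50 bases after a start site, were found for 34 of the 44 members (37 promoters). The ER stress response element (CCAAT, then any 9 bases, then CCACG, on either strand) was present in promoters of 2 members, Calr and Canx, which is 5.88% of the 34, against 37 of 27025 genes in the whole table (0.137%). The related ERSE-II element (ATTGG, any 1 base, CCACG) was in no member and in 0.0444% of genes. The full TGACGTGG core of the unfolded protein response element was in Sec24d and Copb1 (5.88% of members, 0.714% of genes), and the shorter GACGTG, which lies inside it, was in 9 members (26.5%, against 7.15% of genes). A match is a description of the letters in the window and not evidence of binding. The sequences of the members with the longer elements are given 5′ to 3′ in the direction of transcription because these 4 members hold the longer elements, and Calr also had the largest changes of the 44 in GMPs in vehicle against NTB and in BRQ against vehicle. Capitals mark the half-sites of the ER stress response element in Calr (chr8:84846882-84847181, minus strand, where the element reads on the opposite strand of the promoter) and Canx (chr11:50325624-50325923, minus strand), and the TGACGTGG core or its reverse complement in Sec24d (chr3:123267430-123267517, plus strand) and Copb1 (chr7:114254661-114254748, minus strand):
Calr: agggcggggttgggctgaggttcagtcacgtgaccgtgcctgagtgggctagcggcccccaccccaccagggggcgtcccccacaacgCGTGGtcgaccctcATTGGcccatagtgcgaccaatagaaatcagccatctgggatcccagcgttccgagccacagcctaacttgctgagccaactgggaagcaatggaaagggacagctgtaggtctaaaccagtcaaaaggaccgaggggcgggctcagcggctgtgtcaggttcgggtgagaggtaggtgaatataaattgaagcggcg
Canx: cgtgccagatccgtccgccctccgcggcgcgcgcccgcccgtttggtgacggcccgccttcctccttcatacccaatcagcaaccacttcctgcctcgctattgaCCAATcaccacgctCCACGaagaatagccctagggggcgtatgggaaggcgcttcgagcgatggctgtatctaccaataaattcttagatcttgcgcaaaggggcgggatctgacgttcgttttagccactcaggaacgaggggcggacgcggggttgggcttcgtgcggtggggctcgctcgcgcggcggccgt
Sec24d: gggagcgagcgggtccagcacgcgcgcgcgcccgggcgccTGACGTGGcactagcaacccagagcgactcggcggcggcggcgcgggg
Copb1: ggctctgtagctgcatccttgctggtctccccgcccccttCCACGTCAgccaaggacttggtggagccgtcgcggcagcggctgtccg

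Cells were assigned to mice by hashtag, and 15996 singlets passed the filters. Any 2 pools shared 38 to 48 cell barcodes. GMPs were the 3922 singlets in which Ms4a3, a gene of committed GMPs, exceeded 3 on the natural log scale of UMIs per 10000. The study put its own limit of 3 on SCTransform values from which cell cycle scores had been regressed, so the GMPs here need not be the same cells. The cut left 1991 GMPs within 0.25 above it and 1751 other cells within 0.25 below it. Each mouse gave 88 to 1017 GMPs and 998154 to 16074010 UMIs in them, with the fewest in NTB mouse 1 and vehicle mouse 2 (95 GMPs). Elane stood at 9540 to 14020 CPM in the GMPs of the 9 mice. Kit itself stood at 38.5 to 82.0 CPM there and at 9.40 to 145 CPM in neutrophil-like cells, which passed the c-Kit enrichment. Values below are UMIs (counted molecules) of a gene summed per mouse and scaled to a common total (CPM) on the library size scaled by the trimmed mean of M values (TMM), given in the order of pools 1, 2 and 3, and adjusted p-values come from edgeR's quasi-likelihood test on those sums over all 10305 genes tested in GMPs (Benjamini-Hochberg).

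The machinery was higher in GMPs of vehicle-treated tumor-bearing mice than in NTB GMPs, and lower again in GMPs of BRQ-treated mice. All 44 members passed the filter on low counts. Summed over the members, GMPs held 12680, 12560 and 11890 CPM in NTB mice, 16770, 16570 and 16430 CPM in vehicle mice and 11490, 11950 and 10850 CPM in BRQ mice, so every vehicle mouse lay above all 6 other mice. The sum leans on abundant members. In vehicle mice Calr, Sec61b, Sec61g and Ssr4 averaged 2407, 2048, 1409 and 1052 CPM, while all COPII members together held 366.0, 401.2 and 368.5 CPM. In vehicle against NTB, 28 of 44 members rose and 0 fell at an adjusted p under 0.05, against 6.89% of all genes tested that rose. The median log2 fold change of the members was 0.37, and that of all genes was -0.01. In BRQ against vehicle, 36 members fell and 0 rose, against 7.46% of all genes that fell, with a median of -0.40 for the members and 0.00 for all genes. The values of the 3 vehicle mice lay above all NTB values in 36 members (15.3% of all genes), and BRQ values lay below all vehicle values in 40 members (15.3% of all genes). The vehicle mice enter both comparisons, so the pair of results is not independent. Of the 44 members, 26 were called in both comparisons, 2 (Srp14 and Ddost) in vehicle against NTB alone, 10 in BRQ against vehicle alone and 6 (Srp68, Rpn2, Sec13, Sec31a, Copa and Copb1) in neither. The share of all genes called in both was not counted, so these joint counts only describe the members. With pool as a replicate block, 31 members rose in vehicle against NTB (999 of 10305 genes). In BRQ against vehicle 39 members fell in that fit (1187 of 10305 genes).

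**Figure D1:**
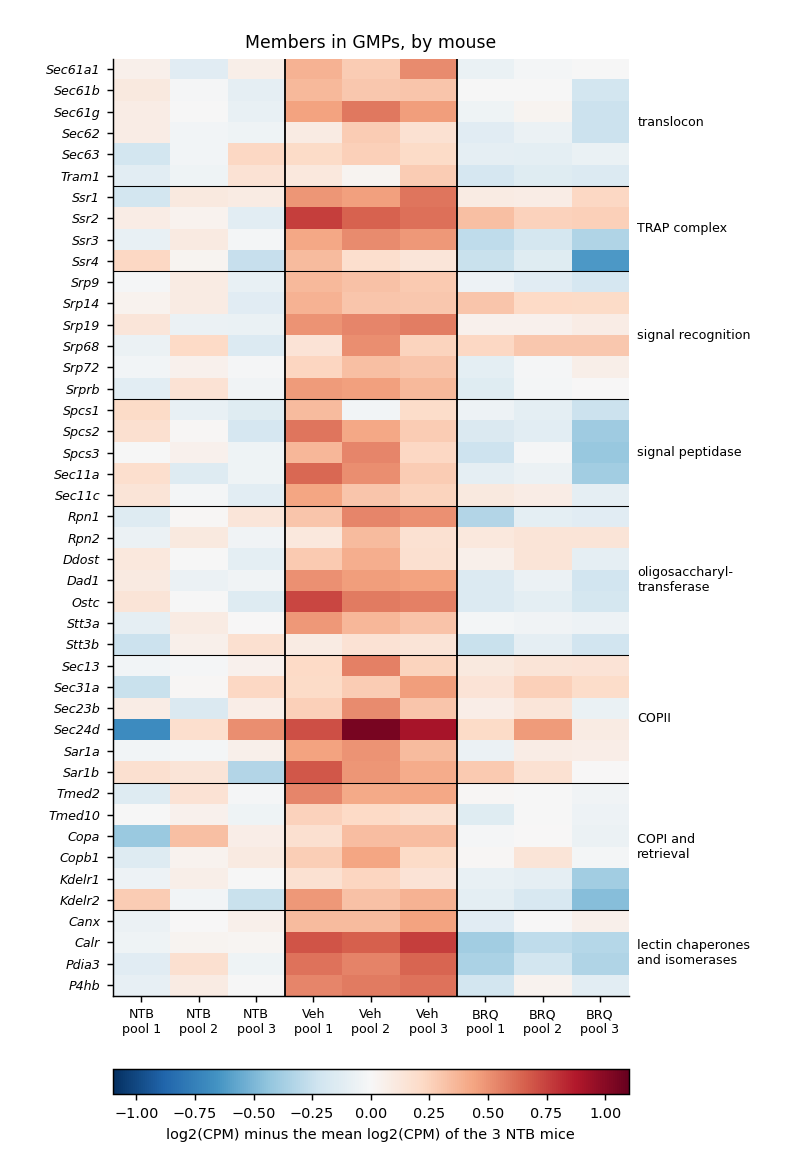
Members in GMPs by mouse. Each row is 1 of the 44 members grouped by role, each column 1 mouse, and the colour is the log2(CPM) minus the mean log2(CPM) of the 3 NTB mice. The 3 vehicle columns are red in nearly every row, and the BRQ columns return to or below the NTB colour except in rows such as Ssr2, Srp14 and Srp68.

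Of the 28 members that rose, 13 kept their call in all 9 fits without 1 mouse, while Srp72 kept it in 1, Ddost in 3, Sec61b and Spcs3 in 4 and the other 11 in 6 or 7. The number of calls in vehicle against NTB depended on single mice and on how GMPs were taken. It was 15 without NTB mouse 3 (2.74% of all genes rose) or without vehicle mouse 1 (3.8%), 18 without NTB mouse 2 (3.89%) and 24 to 28 without any other mouse (5.02 to 8.41%). It was 13 among GMPs of the largest GMP-like cluster (2.08%), 11 among GMPs of cluster 1 (1.69%), 5 at an Ms4a3 limit of 3.5 (0.675%, with 6 to 13 GMPs in the NTB mice) and 0 when the cell limits were read as UMIs, where 0 of 3229 genes were called in either direction (250 at an unadjusted p under 0.05) and vehicle mouse 2 had 8 GMPs. No member fell in these fits and each had a positive median, and the calls over all genes were fewer in each of them but the fit without BRQ mouse 3. Of the 36 members that fell in BRQ against vehicle, 25 kept their call in all 9 fits without 1 mouse, Sec23b in 0, Sec63 in 4, Stt3b in 5 and the other 8 in 6 to 8. The count was 28 to 36 without any 1 mouse (3.86 to 7.45% of all genes fell), 20 at the Ms4a3 limit of 3.5 (3.91%), 20 among GMPs of 8000 to 16000 UMIs (5.28%), 0 with limits read as UMIs (0 of 3229 genes in either direction, 140 at an unadjusted p under 0.05), and 18 without TMM scaling (2.56%), where the median of all genes moved by 0.20 and the members' median was -0.20.

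Lectin chaperones and disulfide isomerases had the largest changes in summed level of the 8 roles. All 4 rose in vehicle against NTB and all 4 fell in BRQ against vehicle. Calr, which encodes calreticulin, a soluble lectin chaperone that also buffers ER calcium, stood at 1429, 1508 and 1498 CPM in NTB, at 2383, 2338 and 2501 CPM in vehicle and at 1131, 1221 and 1189 CPM in BRQ mice. The 3 groups did not overlap, with vehicle highest and BRQ lowest. The log2 fold change was 0.70 (SE 0.09, adjusted p = 1.88e-05) in vehicle against NTB, a 1.63-fold rise, and -1.03 (SE 0.09, adjusted p = 2.69e-08) in BRQ against vehicle, a 2.04-fold fall. Pdia3 encodes ERp57, the disulfide isomerase that works with calreticulin and calnexin. It stood at 344, 423 and 363 CPM in NTB, 568, 549 and 586 CPM in vehicle and 295, 326 and 298 CPM in BRQ mice. Again the groups were apart in that order, with log2 fold changes of 0.59 (SE 0.09, adjusted p = 0.000199) and -0.89 (SE 0.09, adjusted p = 2.44e-07). P4hb, protein disulfide isomerase itself, stood at 366, 414 and 388 CPM in NTB, 563, 578 and 587 CPM in vehicle and 338, 398 and 359 CPM in BRQ mice. Its vehicle values were above all others, and its NTB and BRQ values overlapped (log2 fold changes 0.56 and -0.66). Canx, the membrane-bound calnexin, changed by 0.38 and -0.40.

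**Figure D2:**
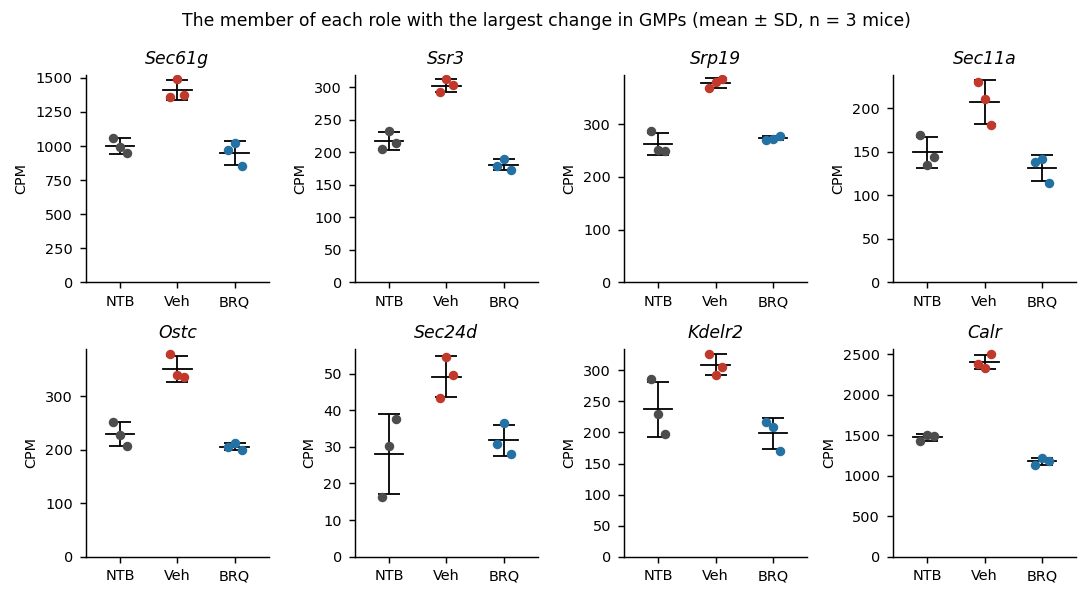
CPM in GMPs of the member with the largest change in each of the 8 roles. Points are mice, horizontal lines are means and bars are SDs (n = 3 mice per group), and each axis starts at 0. The vehicle points lie above all NTB and BRQ points in each panel, and in Calr and Ssr3 the BRQ points also lie below the NTB points.

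In the oligosaccharyltransferase, 5 of 7 members rose in vehicle against NTB and 5 of 7 fell in BRQ against vehicle. Ostc, a small subunit of the form of the enzyme that works at the translocon, stood at 253, 228 and 208 CPM in NTB, 380, 339 and 336 CPM in vehicle and 206, 212 and 200 CPM in BRQ mice. The vehicle mice were apart from all others (0.64, SE 0.09, adjusted p = 7.95e-05, and -0.78, SE 0.08, adjusted p = 1.29e-06). Rpn1 encodes ribophorin I, a subunit shared by both forms of the enzyme, and stood at 294, 327 and 356 CPM in NTB, 401, 470 and 459 CPM in vehicle and 260, 301 and 298 CPM in BRQ mice. Dad1, a further shared subunit, stood at 319, 284 and 289 CPM, then 420, 408 and 404 CPM, then 267, 285 and 256 CPM. In both genes every vehicle value lay above every other value, with log2 fold changes of 0.43 and -0.63 for Rpn1 and 0.47 and -0.61 for Dad1. Of the catalytic subunits, Stt3a passed in both comparisons (0.38 and -0.43) and Stt3b only in BRQ against vehicle (0.09, adjusted p = 0.621, and -0.31, adjusted p = 0.0173). The shared subunit Ddost had 0.29 (adjusted p = 0.0462) and -0.25 (adjusted p = 0.0596). Rpn2, ribophorin II, passed in neither comparison. It stood at 179, 202 and 182 CPM in NTB, 203, 239 and 210 CPM in vehicle and 203, 207 and 206 CPM in BRQ mice, where vehicle and BRQ overlapped (0.19, adjusted p = 0.178, and -0.07, adjusted p = 0.671).

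Of the TRAP complex, which helps some proteins enter the Sec61 channel, 3 of 4 members rose in vehicle against NTB and all 4 fell in BRQ against vehicle. Ssr2 stood at 213, 207 and 186 CPM in NTB, 342, 315 and 308 CPM in vehicle and 253, 240 and 242 CPM in BRQ mice. Its groups were apart with BRQ between NTB and vehicle, and the log2 fold changes were 0.68 (SE 0.09, adjusted p = 2.53e-05) and -0.40 (SE 0.08, adjusted p = 0.00171). Ssr3 was apart in the other order. It stood at 206, 233 and 215 CPM in NTB, 292, 312 and 303 CPM in vehicle and 179, 190 and 173 CPM in BRQ mice, with BRQ below NTB (0.46 and -0.74). The subunit Ssr4 stood at 1053, 918 and 756 CPM in NTB, 1144, 1023 and 989 CPM in vehicle and 762, 821 and 581 CPM in BRQ mice. NTB overlapped with both other groups, and only the fall in BRQ against vehicle passed (0.22, adjusted p = 0.263, and -0.55, adjusted p = 0.00318). Ssr1 changed by 0.49 and -0.38.

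In the signal peptidase, 4 of 5 members rose in vehicle against NTB and all 5 fell in BRQ against vehicle. Sec11a, a catalytic subunit, stood at 169, 135 and 144 CPM in NTB, 231, 211 and 180 CPM in vehicle and 138, 142 and 114 CPM in BRQ mice. Spcs2, an accessory subunit, stood at 479, 428 and 375 CPM, then 638, 570 and 516 CPM, then 380, 391 and 324 CPM. Spcs3, which is needed for the catalytic activity, stood at 125, 130 and 122 CPM, then 162, 182 and 147 CPM, then 108, 125 and 94.1 CPM. In all 3 genes the vehicle mice were above all others, and NTB and BRQ overlapped. The log2 fold changes were 0.50 and -0.67 for Sec11a, 0.44 and -0.66 for Spcs2, and 0.37 and -0.58 for Spcs3. The second catalytic subunit Sec11c changed by 0.34 and -0.30, and Spcs1 passed only in BRQ against vehicle (0.21 and -0.34).

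Of the translocon, 3 of 6 members rose in vehicle against NTB and all 6 fell in BRQ against vehicle. The members that rose were the 3 subunits of the Sec61 channel. Sec61a1, which forms the channel, stood at 70.8, 62.7 and 71.4 CPM in NTB, 88.9, 82.7 and 97.6 CPM in vehicle and 64.7, 67.0 and 67.9 CPM in BRQ mice. The small subunit gene Sec61g stood at 1061, 996 and 947 CPM, then 1362, 1492 and 1372 CPM, then 968, 1022 and 852 CPM. Sec61b, the other small subunit, stood at 1773, 1628 and 1532 CPM, then 2097, 2015 and 2033 CPM, then 1636, 1632 and 1428 CPM. In each of the 3 the vehicle values were highest without overlap, with log2 fold changes of 0.41 and -0.45 for Sec61a1, 0.49 and -0.57 for Sec61g, and 0.32 and -0.39 for Sec61b. The partners Sec62, Sec63 and Tram1, which assist the channel, had log2 fold changes of 0.14 to 0.18 in vehicle against NTB, which did not pass (adjusted p 0.205 to 0.38), and fell in BRQ against vehicle by 0.31 each on the log2 scale.

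Of the 6 signal recognition genes, 4 rose in vehicle against NTB and 4 fell in BRQ against vehicle, and these were not the same 4. Srp19, a protein of the signal recognition particle, stood at 288, 251 and 249 CPM in NTB, 369, 380 and 386 CPM in vehicle and 271, 271 and 278 CPM in BRQ mice, with the vehicle mice apart (0.54, SE 0.09, adjusted p = 0.000266, and -0.47, SE 0.08, adjusted p = 0.000317). Srp9, which binds the Alu domain of the particle's RNA with Srp14, stood at 353, 378 and 335 CPM, then 455, 444 and 432 CPM, then 343, 325 and 313 CPM. Srprb, the membrane-anchored subunit of the receptor, stood at 20.7, 25.1 and 21.8 CPM, then 31.1, 30.7 and 28.8 CPM, then 20.5, 22.1 and 22.5 CPM. The vehicle values were highest without overlap in both genes, with 0.32 and -0.44 for Srp9, while only the fall passed for Srprb (0.42, adjusted p = 0.0721, and -0.48, adjusted p = 0.00326). Srp14 differed from its partner. It rose in vehicle against NTB (0.33, adjusted p = 0.0146), and its BRQ values overlapped with vehicle (-0.09, adjusted p = 0.549). Srp68 stood at 66.4, 80.9 and 62.4 CPM in NTB, 77.2, 99.0 and 82.3 CPM in vehicle and 81.3, 85.4 and 85.2 CPM in BRQ mice. Its vehicle and BRQ values overlapped (0.26, adjusted p = 0.164, and 0.01, adjusted p = 0.99), and it was the only member of the 44 with no negative estimate in BRQ against vehicle. Srp72, which pairs with Srp68 in the particle, passed in both comparisons (0.28 and -0.30), although its rise kept its call in 1 of the 9 fits without 1 mouse.

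Of the COPII coat, which buds vesicles from the ER, 3 of 6 members rose and 4 fell. Sec24d, a cargo-binding subunit of the inner coat, stood at 16.3, 30.1 and 37.7 CPM in NTB, 43.3, 54.5 and 49.7 CPM in vehicle and 30.7, 36.5 and 28.2 CPM in BRQ mice. The NTB mice spread widely, but the vehicle mice lay above them (0.66, SE 0.18, adjusted p = 0.0191, and -0.59, SE 0.13, adjusted p = 0.00384). Sar1a and Sar1b encode the GTPases that start coat assembly. Sar1b stood at 54.5, 53.3 and 38.7 CPM, then 77.5, 67.7 and 64.0 CPM, then 58.8, 54.2 and 48.5 CPM, and Sar1a at 47.9, 48.3 and 51.0 CPM, then 66.7, 69.0 and 62.6 CPM, then 47.0, 51.8 and 51.6 CPM. In both the vehicle values were highest without overlap (0.58 and -0.40 for Sar1b, 0.41 and -0.39 for Sar1a). The outer coat gene Sec31a stood at 41.4, 49.5 and 57.5 CPM, then 56.7, 59.6 and 67.4 CPM, then 54.3, 58.7 and 56.5 CPM, with overlap in both comparisons (0.26, adjusted p = 0.187, and -0.11, adjusted p = 0.511). The other outer coat gene Sec13 did not pass either (0.30 and -0.17), and the inner coat gene Sec23b fell in BRQ against vehicle at an adjusted p of 0.0497, a call that was lost in all 9 fits without 1 mouse.

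Of the COPI coat and retrieval genes, 2 of 6 members rose and 4 fell. Kdelr2, a receptor that returns proteins with the ER retention signal, stood at 285, 229 and 198 CPM in NTB, 327, 293 and 306 CPM in vehicle and 218, 208 and 170 CPM in BRQ mice. Tmed2, a p24 cargo receptor, stood at 218, 269 and 238 CPM, then 348, 322 and 323 CPM, then 243, 239 and 234 CPM. In both the vehicle mice were highest without overlap (0.41 and -0.64 for Kdelr2, 0.45 and -0.47 for Tmed2). Kdelr1, the paralog of Kdelr2, stood at 73.0, 79.0 and 75.3 CPM, then 85.2, 89.0 and 84.3 CPM, then 71.6, 70.8 and 58.0 CPM, and only its fall passed (0.17, adjusted p = 0.344, and -0.36, adjusted p = 0.00858), as did that of the p24 receptor Tmed10 (0.22 and -0.28). Copb1, a subunit of the coat itself, stood at 59.9, 67.7 and 70.9 CPM, then 79.6, 89.0 and 76.1 CPM, then 66.6, 72.7 and 64.9 CPM. Its vehicle values were highest without overlap, yet neither change passed (0.26, adjusted p = 0.127, and -0.24, adjusted p = 0.0695), nor did those of the coat subunit Copa (0.20 and -0.30).

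**Figure D3:**
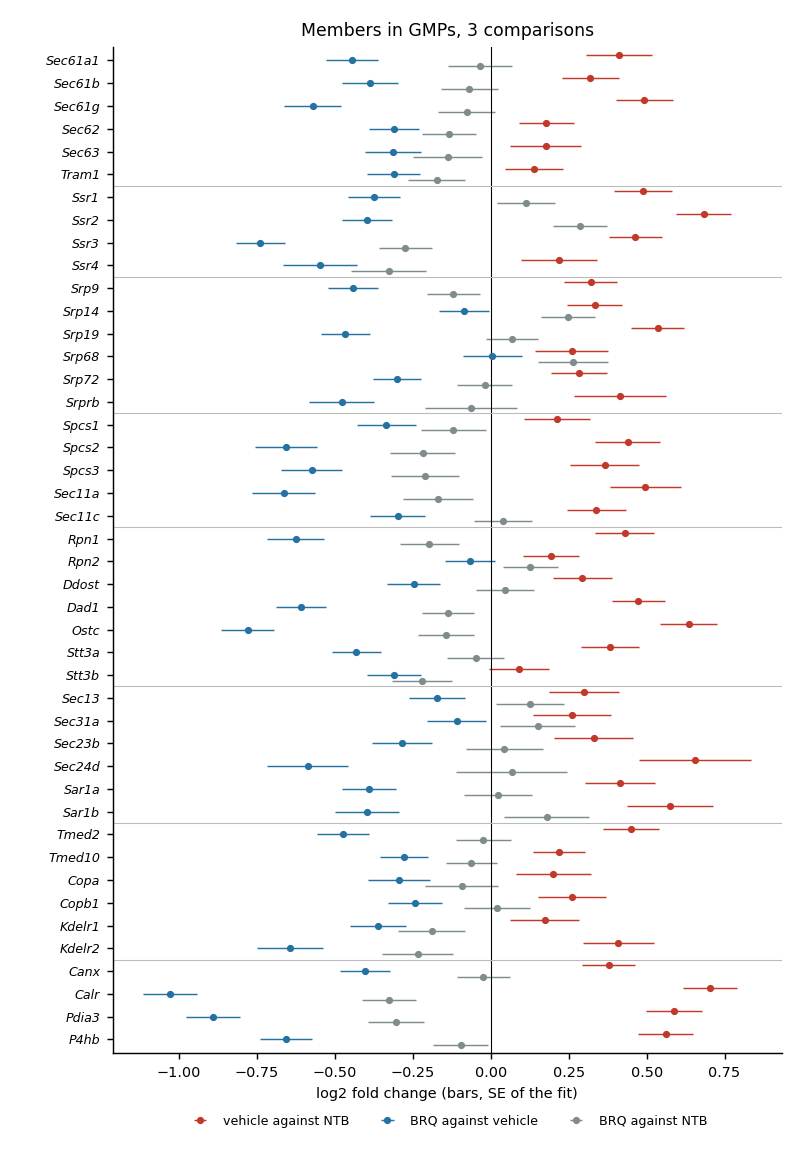
log2 fold changes of the 44 members in GMPs, with the SE of the fit as bars, for vehicle against NTB (red), BRQ against vehicle (blue) and BRQ against NTB (grey). All red points lie right of 0, all blue points but Srp68 lie left of it, and the grey points lie between -0.33 and 0.29.

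Between BRQ-treated tumor-bearing mice and NTB mice few members differed in GMPs. Calr (-0.33, SE 0.09, adjusted p = 0.0256) and Pdia3 (-0.31, SE 0.09, adjusted p = 0.0459) were lower in BRQ, against 3.47% of all genes that fell, and 0 of 44 members were higher, against 2.57% that rose. Ssr3 (-0.28, adjusted p = 0.0567) and Ssr2 (0.29, adjusted p = 0.0521) were nearest to the threshold on either side, and both were apart from NTB in all mice. This was not particular to them. Of the 44 members 5 lay above and 6 below all NTB values, a share near that of all genes (1361 and 1304 of 10305). The members' median was -0.07. With pool as a replicate block, 6 members were lower and 2 higher, where 6.18% of all genes were lower and 5.71% higher. The direction of the few calls was not the same in every fit, with 3 higher and 1 lower at an Ms4a3 limit of 2.5 (7.93 and 7.99% of all genes), 3 higher and 3 lower in GMP-like clusters (6.51 and 5.37%), 1 higher and 3 lower with DESeq2 (2.03 and 3.26%), and 1 higher and 0 lower with no filter on low counts (2.99 and 2.12%). Without TMM scaling the median turned to 0.10 with 4 members higher and 0 lower (10.9 and 2.1%), while the median of all genes moved to 0.16. Calr kept its call in 5 and Pdia3 in 2 of the 9 fits without 1 mouse. There were 0 members called without NTB mouse 2 (250 of 10834 genes called in either direction), vehicle mouse 2 (485 of 10867) or BRQ mouse 1 (535 of 9975). Without NTB mouse 3 (221 of 10822 genes fell), vehicle mouse 1 (339 of 9988), vehicle mouse 3 (313 of 10535) or BRQ mouse 3 (247 of 9936), 1 member was lower. Without NTB mouse 1 (215 of 10839) 2 members were lower, and without BRQ mouse 2 (469 of 9952) 4 were.

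Of 99 further genes listed for these machines, 95 were in the files and 88 were tested in GMPs. In vehicle against NTB 15 of 88 rose and 0 fell (median 0.18), against 6.89% of all genes that rose, and in BRQ against vehicle 27 of 88 fell and 0 rose (median -0.21), against 7.46% that fell. Their difference from the members was not tested. Among other subunits of the same machines, 10 of 40 rose and 17 of 40 fell, among them Srpr, the subunit of the signal recognition receptor that binds the particle (0.56 and -0.85), and the cargo receptor genes Surf4 (0.45 and -0.63) and Mcfd2 (0.56 and -0.54). Preb, the exchange factor for Sar1, rose by 0.59, and the oligosaccharyltransferase subunit Krtcap2 fell by 0.59 on the log2 scale. Of the genes for assembly and trimming of the glycan itself, 1 of 28 rose, a share below that of all genes, and 6 of 28 fell, among them the mannosyltransferase gene Alg12 (-0.78). Of genes for other routes of membrane insertion, 4 of 20 rose and 4 of 20 fell. Emc6, a subunit of the ER membrane complex, rose in vehicle against NTB (0.60) and stayed higher in BRQ against NTB (0.40, adjusted p = 0.00841), the 1 call among the 88 in that comparison.

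Other properties of the GMPs moved with the groups. Cluster 1, a GMP-like cluster led by Fkbp11 and Ctsg and with the member Calr among its 10 leading genes, held 17.2 to 23.0% of a mouse's GMPs in NTB, 31.9 to 41.4% in vehicle and 29.8 to 36.3% in BRQ mice. Within GMPs of that cluster the members' medians were 0.30 in vehicle against NTB and -0.37 in BRQ against vehicle, with 11 members higher (1.69% of 8858 genes) and 29 lower (4.62%). Cluster 3, which stayed unnamed and was led by Fcnb and Lipg, moved the other way. It held 17.05 to 22.41% of a mouse's GMPs in NTB, 7.45 to 13.37% in vehicle and 7.77 to 14.39% in BRQ mice. Its part in the members' changes was not tested. The median UMIs per GMP were 10828.5 to 11395.5 in NTB, 14737 to 17926 in vehicle and 12168.5 to 15746 in BRQ mice, and within GMPs of 8000 to 16000 UMIs the members' medians were 0.40 and -0.31, with 20 members higher in vehicle against NTB (3.38% of 7835 genes) and 20 lower in BRQ against vehicle (5.28%). The 83 cytoplasmic ribosomal protein genes summed to 279100 to 293000 CPM in NTB, 279500 to 289000 CPM in vehicle and 225100 to 262800 CPM in BRQ mice. The 14 neutrophil markers, none at 0, summed to 47540 to 51000 CPM in NTB, 33890 to 38050 CPM in vehicle and 27170 to 38520 CPM in BRQ GMPs, and the 8 macrophage markers, with Mertk at 0, to 272 to 308, 157 to 172 and 62.5 to 194 CPM. Of the marker lists of other cells, 4 were higher in BRQ than in both other groups without overlap. The 9 HSC/MPP markers, none at 0, summed to 48.2 to 51.7, 51.2 to 51.6 and 77.9 to 96.3 CPM in NTB, vehicle and BRQ, the 10 monocyte/MDP markers, none at 0, to 53.1 to 62.1, 46.3 to 63.0 and 93.8 to 147.8 CPM, and the 10 basophil, mast cell and eosinophil markers, with Cma1 at 0, to 121 to 179, 86.1 to 112 and 183 to 200 CPM, and the 7 stromal and endothelial markers, with Col3a1 at 0, to 2.00 to 5.47, 3.61 to 5.54 and 6.87 to 11.9 CPM. The other progenitor lists overlapped between BRQ and NTB. The 11 erythroid/MEP markers summed to 15.03 to 31.3, 8.43 to 33.4 and 11.7 to 32.1 CPM, the 7 megakaryocyte markers to 3.65 to 9.44, 3.01 to 9.66 and 4.92 to 11.8 CPM, and the 8 lymphoid progenitor markers to 5.01 to 19.4, 2.51 to 4.82 and 5.15 to 6.98 CPM, with none at 0 in these lists. The dendritic, B, plasma and T/NK cell lists each summed to at most 107 CPM in any mouse. The 20 S phase genes summed to 1542 to 1882, 1710 to 1910 and 1710 to 2113 CPM. The part of the depth, ribosomal share and marker levels in the members' changes was not tested.

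In monocyte/MDP-like cells (42 to 104 cells a mouse in NTB, 35 to 264 in vehicle and 316 to 355 in BRQ) fewer members were called. In vehicle against NTB 4 of 44 members rose, against 2.21% of 9310 genes, and in BRQ against vehicle 13 fell, against 3.01%, with medians of 0.16 and -0.22. The estimate was positive for 41 of 44 members in the first comparison, all but Sec23b, Sec31a and Stt3b, and negative for 43 of 44 in the second, all but Srp14. Median UMIs per cell were 13790 to 17462 in NTB, 20712 to 23871 in vehicle and 15240 to 18508 in BRQ mice, and the 9 HSC/MPP markers, none at 0, summed to 188 to 238, 170 to 206 and 249 to 259 CPM, and their part in the members' values was not tested. The 4 that rose were Ssr2 (0.43), Srp19 (0.41), Spcs2 (0.42) and Pdia3 (0.37, SE 0.09, adjusted p = 0.0242). The lectin chaperone and isomerase genes were again the role with the largest fall, and all 4 passed. Calr stood at 2000, 1452 and 1576 CPM in NTB, 2092, 2004 and 2037 CPM in vehicle and 1342, 1252 and 1315 CPM in BRQ mice. The BRQ mice were below all others, and vehicle and NTB differed by a margin that did not pass (0.29, adjusted p = 0.102), while the fall with BRQ was 0.65 on the log2 scale (SE 0.10, adjusted p = 0.000117). Calr was also the 1 member called in BRQ against NTB (-0.36, adjusted p = 0.044), against 1.62% of all genes that fell. Pdia3 stood at 390, 416 and 377 CPM in NTB, 515, 530 and 482 CPM in vehicle and 361, 361 and 333 CPM in BRQ mice, with all groups apart. With pool as a replicate block 7 members were higher in vehicle against NTB (3.09% of all genes), and in BRQ against NTB 2 were higher and 2 lower (2.38 and 2.7%). In vehicle against NTB 0 members were called without NTB mouse 2 (0.622% of all genes rose), NTB mouse 3 (0.517%) or vehicle mouse 1 (1.25%), with 14, 9 and 11 members higher at an unadjusted p under 0.05, 1 without vehicle mouse 2 (0.753%) and 7 without vehicle mouse 3 (2.57%). In BRQ against vehicle 6 fell without vehicle mouse 1 (1.12% of all genes), 8 without vehicle mouse 2 (1.38%) and 8 without BRQ mouse 1 (1.96%). In BRQ against NTB there were 0 calls without any NTB mouse, vehicle mouse 2 or any BRQ mouse, where 0.44 to 2.08% of all genes fell and 0.45 to 1.8% rose, and 1 higher and 1 lower without vehicle mouse 1 (1.66 and 1.74%) or vehicle mouse 3 (1.52% each). A test of the difference of effects between GMPs and monocyte/MDP-like cells, by limma on each mouse's log2(CPM + 1) difference, called 0 members and 0 of 9147 genes in either tumor comparison (0%), with 1093 and 525 genes at an unadjusted p under 0.05.

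In the sum of all neutrophil-like cells few members were called. Of the 44, 42 passed the filter (Srprb and Sec24d did not). In vehicle against NTB 1 rose and 2 fell, against 16.4% of 7765 genes that rose and 13.4% that fell, and the median was -0.12 (-0.06 for all genes). Calr was the 1 that rose. It stood at 98.0, 81.2 and 81.1 CPM in NTB, 131, 256 and 142 CPM in vehicle and 93.9, 81.5 and 136 CPM in BRQ mice. The vehicle mice lay above all NTB mice, vehicle mouse 2 was highest, and BRQ mouse 3 lay above vehicle mouse 1 (0.98, SE 0.26, adjusted p = 0.0111, and -0.69, adjusted p = 0.275). Stt3b fell (-0.81, adjusted p = 0.0189) from 90.3, 72.3 and 76.2 CPM in NTB to 50.3, 48.6 and 36.1 CPM in vehicle mice, with 52.0, 64.5 and 34.8 CPM in BRQ mice, and Srp68 fell (-0.88, adjusted p = 0.0386) from 32.7, 22.5 and 21.5 CPM to 16.0, 12.95 and 9.26 CPM, with 19.1, 20.8 and 14.1 CPM in BRQ mice. The vehicle values of Stt3b and Srp68 lay below all NTB values. The called members were 1 higher without NTB mouse 1 (14.3% of all genes rose) or vehicle mouse 3 (10.4%), 0 without NTB mouse 3 (11.1% rose and 7.02% fell), 1 higher and 4 lower without BRQ mouse 3 (19.5 and 18.4%), and 2 higher and 3 lower with pool as a replicate block (18.9 and 17.6%). In the same sums the 10 monocyte/MDP markers, none at 0, held 23.9 to 32.7 CPM in NTB, 93.2 to 170 CPM in vehicle and 57.1 to 142 CPM in BRQ mice, and the 10 basophil, mast cell and eosinophil markers, with Cma1 at 0, held 115 to 140, 300 to 489 and 247 to 437 CPM. The 7 GMP markers, none at 0, held 1306 to 2070, 2001 to 2556 and 2226 to 2498 CPM. Cells of those classes had Calr medians of 1579, 2038 and 1670 CPM on plain library size, against 92.9 CPM in neutrophil-like cells. The part of such cells in the Calr rise was not tested. In BRQ against vehicle 0 members were called by edgeR (2 at an unadjusted p under 0.05, both lower; 0.0129% of all genes fell, and DESeq2 gave 0), and without BRQ mouse 3, where 6.52% of all genes fell, 2 members fell. In BRQ against NTB 0 were called by edgeR (5 at an unadjusted p under 0.05; 11.8% of all genes rose and 4.2% fell, and DESeq2 gave 0), with 2 lower under the replicate block (9.45% of all genes) and 1 lower without BRQ mouse 2 (3.36%). The makeup of these cells differed by group. Cluster 4, led by Chil3, Camp and Ngp, held 60.5 to 67.4% of them in NTB mice, and cluster 2, led by Wfdc17 and Il1b, held 74.4 to 90.7% in vehicle and 55.1 to 82.3% in BRQ mice. Median UMIs per neutrophil-like cell were 5434.5 to 6305.5 in NTB, 1569 to 1850.5 in vehicle and 2622 to 3195 in BRQ mice. The fits within 1 cluster rest on few cells in some mice. Cluster 2 held 9, 39 and 57 cells in NTB mice, with 17383 UMIs in NTB mouse 1, and 112 to 399 cells in each other mouse, and cluster 4 held 53, 10 and 16 cells in vehicle mice and 15 in BRQ mouse 3. Within cluster 2 alone 26 of 33 members had a positive estimate in vehicle against NTB, with a median of 0.57, 0 called by edgeR (5 at an unadjusted p under 0.05, all higher; 1.09% of 4391 genes rose), and 29 of 33 had a negative estimate in BRQ against vehicle, with a median of -0.22 and 3 called lower (1.21% of genes fell). Within cluster 4 alone the median in vehicle against NTB was 0.13 with 2 of 42 called, both higher (1.08% of 4999 genes rose). In summed cells, fewer cells of a kind and less RNA of a gene per cell cannot be told apart.

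**Figure D4:**
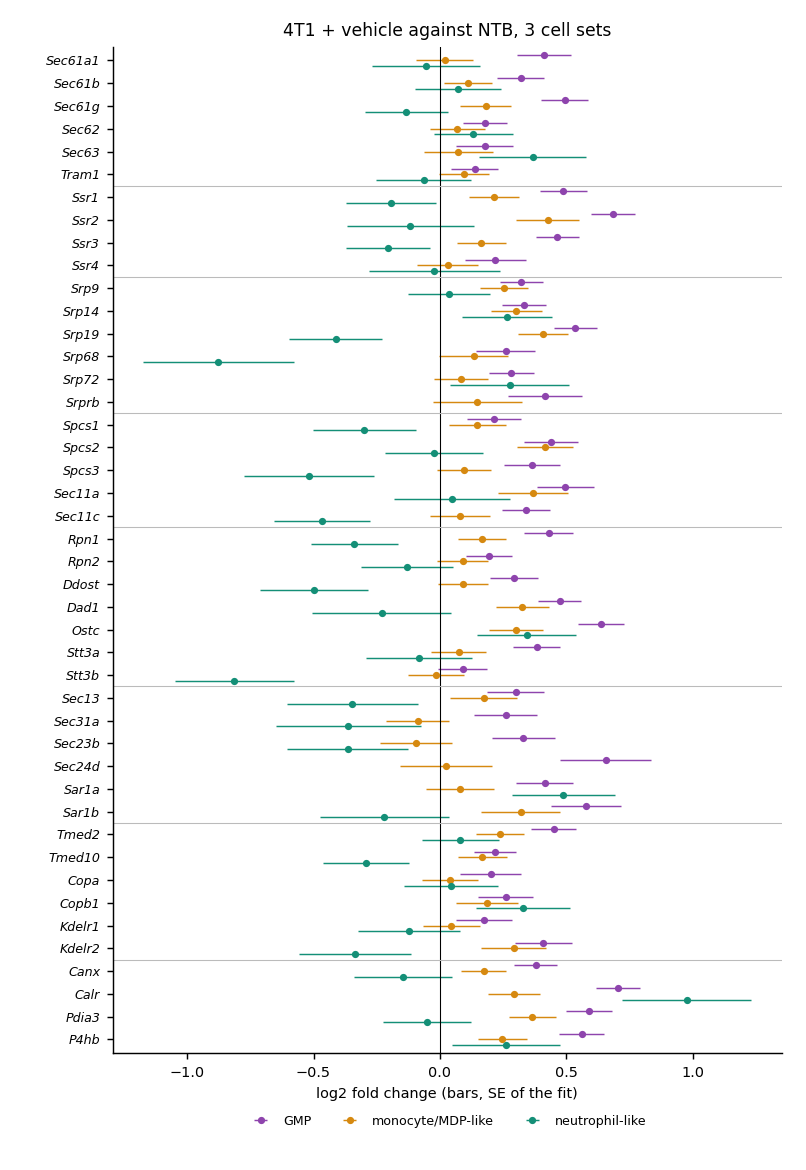
log2 fold changes of the members in vehicle against NTB, with the SE of the fit as bars, in GMPs (purple), monocyte/MDP-like cells (orange) and neutrophil-like cells (green). All purple points are right of 0, orange points are mostly nearer to 0, and green points lie on both sides, from -0.88 for Srp68 to 0.98 for Calr. Srprb and Sec24d have no green point.

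The difference of effects between GMPs and neutrophil-like cells was tested in the same way over 7526 genes. In vehicle against NTB, 13 of 42 members differed, all with a positive difference (GMP effect minus neutrophil-like effect), against 27% of all genes that differed in either direction. They were 3 TRAP genes (Ssr1, Ssr2 and Ssr3), 3 of the oligosaccharyltransferase (Rpn1, Ddost and Stt3b), 2 of signal recognition (Srp19 and Srp68), 2 of the signal peptidase (Spcs3 and Sec11c), 2 of COPII (Sec23b and Sar1b) and Sec61g. The difference in log2 effect ranged from 0.65 for Sec61g (adjusted p = 0.0473) to 1.26 for Srp68 (adjusted p = 0.0174). A positive difference need not mean a larger change in GMPs. Srp68 changed by 0.26 in GMPs and by -0.88 in neutrophil-like cells, and Stt3b by 0.09 and -0.81. The share of members called was near that of all genes. Calr did not differ between the cell sets (-0.25, SE 0.33, adjusted p = 0.587). In BRQ against vehicle 0 members and 0 of 7526 genes were called by limma (0%), with 1277 genes at an unadjusted p under 0.05, and the median difference over the members was -0.45.

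Across the 6 cell classes with at least 6 mice the summed level of the members, here on plain library size, was highest in GMP-like, monocyte/MDP-like and basophil/mast/eosinophil-like cells and lowest in neutrophil-like cells. These levels are a description with no test. GMP-like clusters held 12130, 12180 and 12350 CPM in NTB, 16160, 16360 and 16190 CPM in vehicle and 12420, 12970 and 12760 CPM in BRQ mice. Monocyte/MDP-like cells held 12190, 11270 and 11260, then 13320, 13320 and 12940, then 11520, 11450 and 11680 CPM. Basophil/mast/eosinophil-like cells ranged from 9531 to 12580 CPM over the 7 mice with at least 20 cells, where the 2 vehicle mice lay above the 2 NTB mice and BRQ overlapped with both. HSC/MPP-like cells, the stem and multipotent progenitors, held 6290, 7072 and 6882 CPM in NTB mice, 8324 and 8165 CPM in the vehicle mice of pools 1 and 3 (vehicle mouse 2 had 11 cells) and 7888, 8113 and 7749 CPM in BRQ mice, so that vehicle lay above BRQ and both lay above NTB. Erythroid/MEP-like cells ranged from 6936 to 7291 CPM over 6 mice. Neutrophil-like cells ranged from 3146 to 3610 CPM over 9 mice, below every value of every other class. The ranges of the first 3 classes overlapped, as did those of HSC/MPP-like and erythroid/MEP-like cells.

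**Figure D5:**
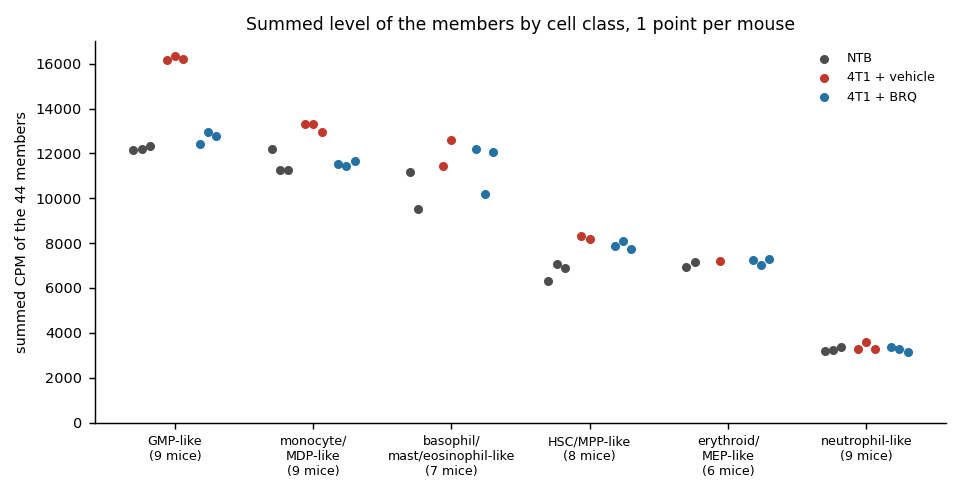
Summed CPM of the 44 members in 6 cell classes, with 1 point for each mouse that had at least 20 cells, coloured by group, on an axis from 0. The vehicle points lie above all others in GMP-like, monocyte/MDP-like and, with 2 mice, HSC/MPP-like cells, and the neutrophil-like points lie between 3146 and 3610 CPM in all groups.

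Single members departed from this order. By median over mice of all 3 groups, which were not equally represented in each class, 23 members were highest in GMP-like cells, 14 in basophil/mast/eosinophil-like, 4 in monocyte/MDP-like and 3 in erythroid/MEP-like cells, and 41 were lowest in neutrophil-like cells. The ranges of the first and second class were apart for Sec61b and Sec62 and overlapped for the other 42 members. Sec61b had a median of 1725 CPM in GMP-like cells (1542 to 1982) and 1367 CPM in monocyte/MDP-like cells (1229 to 1429). Calr had its highest median in basophil/mast/eosinophil-like cells (2038 CPM, 1476 to 2272), a range that overlapped with that of GMP-like cells (median 1670 CPM, 1411 to 2629). In the vehicle mice of pools 1 and 3 the order was the opposite, with 2505 and 2629 CPM in GMP-like cells and 2038 and 2220 CPM in basophil/mast/eosinophil-like cells. Calr was lowest in neutrophil-like cells (92.9 CPM, 76.7 to 272). Canx had its highest median in erythroid/MEP-like cells (547 CPM, 472 to 719), and so did Srp72 (162 CPM) and Sar1a (66.4 CPM). Sec24d had medians of 39.8 CPM in GMP-like, 31.2 CPM in basophil/mast/eosinophil-like, 24.3 CPM in monocyte/MDP-like, 7.59 CPM in HSC/MPP-like, 2.62 CPM in neutrophil-like and 1.50 CPM in erythroid/MEP-like cells.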

How the data were processed

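RNA of c-Kit-enriched bone marrow was measured with 10x 3' v3.1 chemistry in 3 pools, each with a hashtag library. The authors deposited raw UMI counts per gene and per hashtag from Cell Ranger 6.0.0 with build mm10; the tool and build come from the submitters' processing notes. Reads were not reprocessed here, and 3' counting gives no gene length effect but reads only transcript ends. Cells were kept with 500 to 7500 detected genes and at most 15% mitochondrial UMIs; the study words its limits of 500 and 7500 as transcripts, and reading them as genes was a choice made here that changes the counts of calls. This left 11175, 9593 and 11994 cells of pools 1, 2 and 3. HTODemux (Seurat 5.3.0, quantile 0.99) left 32.76 to 52.19% without a tag and called 6.21 to 17.7% doublets, which were removed; Scrublet (scanpy 1.11.5) marked 3.58 to 5.38% and served as an alternative. Clusters (23, of which 6 stayed unnamed) came from Leiden at resolution 0.8 on 2000 variable genes and 30 components, with 139 pathway genes left out, and were named from marker lists. The limit of 3 on Ms4a3 was applied here to ln(1 + UMIs per 10000), whereas the study applied its limit to SCTransform values with cell cycle scores regressed out, which were not rebuilt here.

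UMI counts were summed per mouse and tested with edgeR 4.0.16 (quasi-likelihood, TMM, filterByExpr, all 9 mice, no block, two-sided), with Benjamini-Hochberg adjustment over all genes tested and calls at 0.05. Differences of effects between cell sets used limma 3.58.1 on log2(CPM + 1). DESeq2 1.42.0 was an alternative, and scripts were tested on simulated data. Values in every mouse are given for the 3 members of each role with the largest GMP change and the 4 with the smallest; of other pathway genes, the 5 largest and 5 smallest called changes per comparison could be named, and members in the other cell sets were chosen after their values were seen. Members and lists were chosen with earlier results of these data known. Each pool held 1 mouse of every group, which pairs the mice by pool; within pools, deviations in GMPs correlated with a median r of 0.096, against -0.037 between pools. Depth was 998154 to 16074010 UMIs per mouse in GMPs, so values of the 3 NTB mice and of vehicle mouse 2 are the least precise. Promoters were read from RefSeq, build GRCm38.p6.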

Additional observations from a re-analysis of the deposited data

Results flagged for a closer look

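The effect of vehicle against NTB differed between GMPs and neutrophil-like cells for 13 members, by limma on each mouse's difference of log2(CPM + 1) with adjustment over 7526 genes, of which 27% differed, so that the share of the 42 members tested was near that of all genes. The difference, GMP effect minus neutrophil-like effect in log2 units, was 0.69 for Ssr3, 0.79 for Ssr2 and 0.72 for Ssr1 of the TRAP complex. It was 0.79 for Ddost, 0.72 for Rpn1 and 0.95 for Stt3b of the oligosaccharyltransferase, and 1.00 for Srp19 and 1.26 for Srp68 of signal recognition. For the signal peptidase it was 0.84 for Spcs3 and 0.83 for Sec11c, for COPII 0.72 for Sec23b and 0.89 for Sar1b, and 0.65 for the channel subunit Sec61g. The part of the different cluster makeup of neutrophil-like cells in the groups was not tested in this comparison.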

How the results depend on the processing

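In GMPs, members called in vehicle against NTB (28) numbered 0 with limits read as UMIs, 5 at an Ms4a3 limit of 3.5, 13 in the largest GMP-like cluster, 11 in cluster 1 and 15 to 28 without 1 mouse. In BRQ against vehicle (36) they numbered 18 without TMM, 0 with limits read as UMIs, 20 at 3.5, 20 at 8000 to 16000 UMIs and 28 to 36 without 1 mouse. In BRQ against NTB (2) they numbered 4 with DESeq2, 4 without TMM, 1 with no filter, 8 with the replicate block by pool, 0 with only the 6 mice compared, 1 with tag ratio calls, 0 with limits read as UMIs, 4 at 2.5, 0 at 3.5, 6 in GMP-like clusters, 0 at 8000 to 16000 UMIs and 0 to 4 without 1 mouse. In monocyte/MDP-like cells the counts in vehicle against NTB (4) were 7 with no filter, 7 with the replicate block, 0 with tag ratio calls and 0 to 7 without 1 mouse; in BRQ against vehicle (13) 6 without TMM, 5 with tag ratio calls and 6 to 14 without 1 mouse; in BRQ against NTB (1) 2 without TMM, 3 with no filter, 4 with the replicate block, 0 with 6 mice, 0 with tag ratio calls and 0 to 2 without 1 mouse. In neutrophil-like cells they were, in vehicle against NTB (3), 5 with the replicate block, 6 with limits read as UMIs, 0 in cluster 2 and 0 to 5 without 1 mouse; in BRQ against vehicle (0), 1 with tag ratio calls, 3 in cluster 2 and 0 to 2 without 1 mouse; in BRQ against NTB (0), 1 with no filter, 2 with the replicate block, 7 with limits read as UMIs, 3 in cluster 4 and 0 to 1 without 1 mouse. The replicate block moved no other count of called members by over 1.5 times. Calls over all genes moved too. In vehicle against NTB they ran in GMPs from 0 of 3229 genes with limits read as UMIs to 2631 of 11026 in GMP-like clusters. In monocyte/MDP-like cells 345, 536 and 297 of 9310 genes were called, in the order of comparisons above. With tag ratio calls they were 75, 136 and 115 of 8732 there, and with no filter 481, 625 and 411 of 16892. The share of all genes is not given for neutrophil-like cells with limits read as UMIs, or in cluster 4 in BRQ against NTB. Fewer or more calls are thus not by themselves a result about the members. With limits read as UMIs, which left 8 to 89 GMPs per mouse, 7 of the 41 members tested had a negative estimate in vehicle against NTB (0 of 44 as reported) and 10 of 41 a positive one in BRQ against vehicle (1 of 44 as reported). Among called members whose values are given in every mouse, Sec61b (-0.11) and Tmed2 (-0.038) changed sign in the former, and Sec61b (0.13), Sec61g (0.005) and Srp19 (0.17) in the latter; apart from the fewer cells, the cause of these shifts was not tested. The cluster 1, cluster 2, cluster 4 and all monocyte/MDP-like alternatives were chosen after seeing the data. Depth limits the NTB GMPs and the vehicle neutrophil-like cells (290065 UMIs in the lowest mouse).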
